A study of Mus musculus with 12 samples.

Results

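Interleukin-10 (IL-10) and transforming growth factor beta (TGF-beta) are cytokines known for restraining immune responses, and the 8 genes described here encode Il10, its receptor chains Il10ra and Il10rb, Tgfb1, its receptors Tgfbr1 and Tgfbr2, and the TGF-beta inhibitors Smad7 and Skil. They were taken by name from 52355 genes to which the deposited transcripts could be summed. The study sequenced RNA of mouse CD11c cells taken from lymph nodes, in 3 groups of 4 libraries each. The sample titles name the inguinal node for the healthy group and a tumor-draining node for the other groups. CD11c is an integrin chain carried by dendritic cells and by some macrophages and lymphocytes. The healthy group had neither tumor nor agonist. The tumor-draining group had a tumor, given in the series title as SubQ KPC, and no agonist. The agonist group had the same kind of tumor and was given a CD40 agonist, an agent that triggers the CD40 receptor on antigen-presenting cells. The sources used here give no strain, age, agonist dose or timing, control treatment or gates of the cell isolation.

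IL-10 is a homodimer that binds Il10ra, which then joins Il10rb, a chain shared with other cytokines of the family. The receptor activates JAK1, TYK2 and STAT3, and in macrophages and dendritic cells this pathway is known to hold back inflammatory cytokines. TGF-beta is secreted in a latent form and released by integrins and proteases. It binds Tgfbr2, which phosphorylates Tgfbr1, and Tgfbr1 in turn phosphorylates Smad2 and Smad3, which enter the nucleus with Smad4. Smad7 blocks Tgfbr1 and directs it to degradation, Skil (SnoN) holds Smad complexes in a repressed state, and both genes are themselves known to be induced by the pathway as negative feedback.

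Library totals ran from 32626784 to 56320661 estimated counts. Every group had 1 library of each of 4 title prefixes, numbered 1 to 4 here as the replicate number, and libraries of a prefix deviated from their group means together. Tests were therefore given both for the group-only model and for a replicate block, a model that also fits the prefix. Whether each library is a separate animal is not in the labels, and p-values then reflect only how these libraries vary, which may be partly technical. Itgax, the gene of CD11c, was at 832 ± 209 CPM (a library's counts scaled to a common total) in healthy libraries, 968 ± 188 in tumor-draining and 731 ± 130 in agonist libraries (SD, n = 4 each). In bulk RNA, fewer cells of a type and less RNA per cell cannot be told apart.

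All 8 genes passed the filter on low counts. Between tumor-draining and healthy libraries no member passed the test. With the agonist, the transcript level of the inhibitor Smad7 fell against tumor-draining libraries once the prefix was fitted, and that of the receptor Tgfbr1 rose against healthy libraries in both models. Il10 itself was read by few counts, Il10rb and Il10 passed against healthy libraries once the prefix was fitted, and Il10ra, Tgfb1, Tgfbr2 and Skil passed in no comparison.

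**Figure D1:**
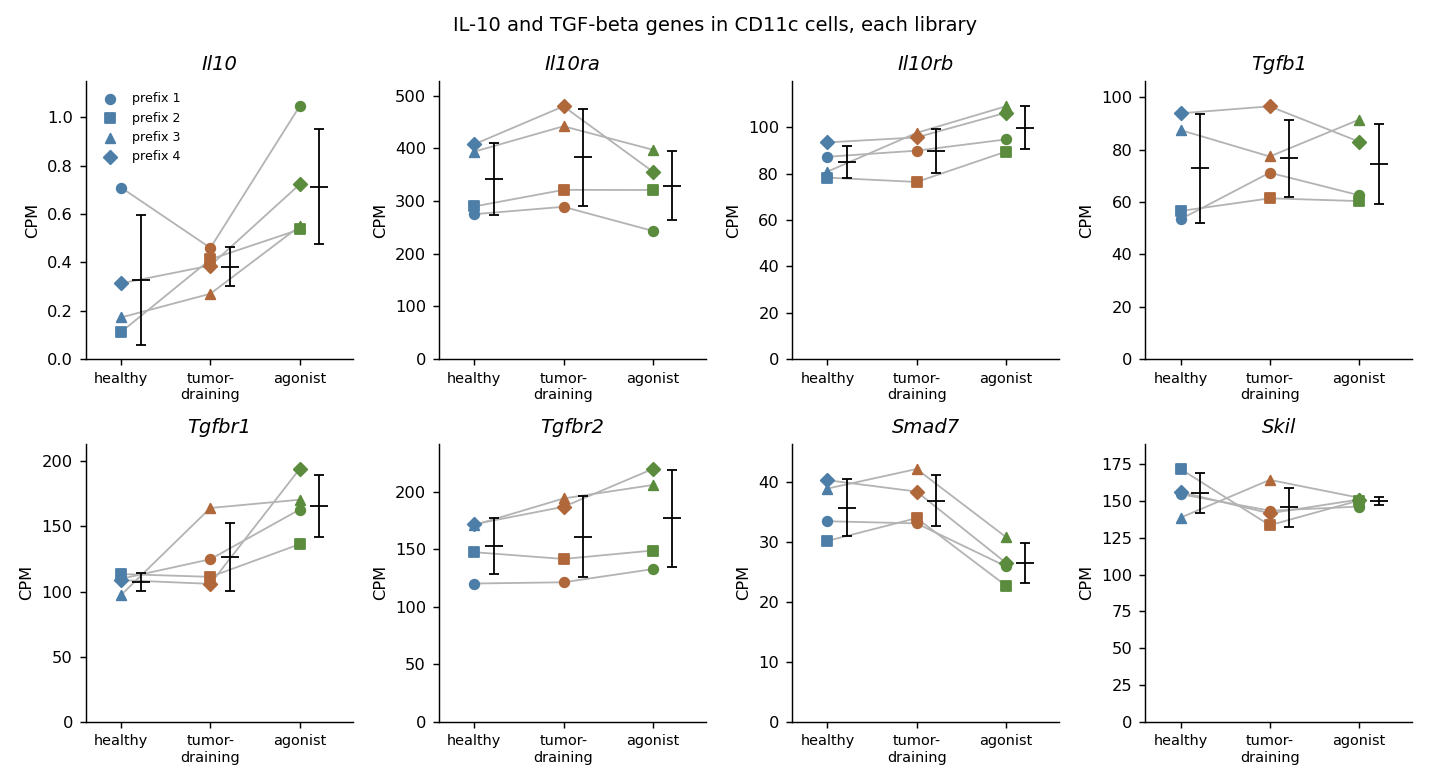
CPM of each gene in every library, with the group on the horizontal axis, 1 point per library, grey lines joining libraries of 1 title prefix, and black bars for the group mean ± SD (n = 4); each vertical axis starts at 0. Smad7 lay lower in all 4 agonist libraries than in any tumor-draining library, and Tgfbr1 higher in all 4 than in any healthy library.

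To order the genes by level, TPM values, a per-length scale with 1 common total for all libraries, were summed over protein-coding transcripts. In healthy libraries the level was 67.4 ± 14.1 TPM for Il10ra, 31.5 ± 3.14 for Il10rb, 27.6 ± 3.48 for Skil, 23.7 ± 4.67 for Tgfbr2, 22.4 ± 2.64 for Tgfbr1, 20.0 ± 6.66 for Tgfb1, 10.7 ± 2.12 for Smad7 and 0.219 ± 0.165 for Il10 (SD, n = 4). Il10ra lay above every other member and Il10 below, without overlap of their libraries with those of their neighbour in this order. The ranges of the neighbours from Il10rb down to Smad7 overlapped at each step.

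Il10 (ENSMUSG00000016529.5, GRCm38 chromosome 1, 131019845 to 131024974, plus strand), the cytokine gene, was read by 4 to 45 estimated counts per library. In healthy replicates 1 to 4 it had 29, 4, 9 and 15 counts, or 0.709, 0.112, 0.172 and 0.313 CPM. Tumor-draining libraries had 20, 19, 14 and 17 counts, or 0.459, 0.412, 0.270 and 0.386 CPM. Agonist libraries had 45, 23, 26 and 33 counts, or 1.04, 0.536, 0.549 and 0.722 CPM. All 4 agonist libraries lay above all 4 tumor-draining ones, while healthy replicate 1 lay above 2 agonist libraries. Against tumor-draining libraries the log2 fold change was 0.90 (SE 0.50), which missed the threshold in edgeR's quasi-likelihood test, group only (adjusted p = 0.516) and with the replicate block (adjusted p = 0.163). Against healthy libraries it was 1.12 (SE 0.51, adjusted p = 0.268) group only and 1.25 (SE 0.38) with the block, where edgeR called it higher (adjusted p = 0.0349), and it was higher in 4 of 4 prefixes. That call held without prefix 1 (adjusted p = 0.0486) and was lost without prefix 2, 3 or 4 (0.124, 0.162 and 0.0943). It was also lost in the block fit over protein-coding transcripts alone. Counts this low limit what can be seen: 3 counts in the shallowest library correspond to 0.084 CPM.

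Regulatory T cells are a known source of IL-10, and their markers were given beside it. The summed level of 7 such markers ran from 49.1 to 54.6 CPM in healthy, 49.4 to 65.0 in tumor-draining and 68.8 to 79.4 in agonist libraries, and none of the 7 was at 0 in any library. Of the 7, Il2ra, the IL-2 receptor alpha chain that activated dendritic cells also carry, was called higher with the agonist in both comparisons. Against tumor-draining and healthy libraries, 1 and 1 of the 7 were called higher group only, and 1 and 2 with the block. Over all genes, 2.68% and 6.28% were called group only and 13.3% and 20.1% with the block. Foxp3, the defining factor of these cells, was at 2.66 ± 0.157, 2.38 ± 0.870 and 2.32 ± 0.570 CPM in the healthy, tumor-draining and agonist groups. The part of such cells in the Il10 values was not tested.

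Il10ra (ENSMUSG00000032089.16, chromosome 9, 45253837 to 45269149, minus strand), the IL-10-binding chain, differed more between prefixes than between groups. Healthy replicates 1 to 4 had 275, 290, 394 and 408 CPM, tumor-draining ones 289, 321, 442 and 480, and agonist ones 243, 321, 398 and 356. Prefixes 1 and 2 were the lower pair in every group, so the groups overlapped throughout. The agonist libraries were below their tumor-draining partners in 4 of 4 prefixes, though in prefix 2 both round to 321 CPM, with a log2 fold change of -0.22 (SE 0.20, edgeR adjusted p = 0.796) group only and -0.21 (SE 0.08, adjusted p = 0.106) with the block.

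Il10rb (ENSMUSG00000022969.13, chromosome 16, 91406164 to 91425834, plus strand), the shared signaling chain, was read in healthy replicates 1 to 4 at 87.2, 78.2, 80.8 and 93.4 CPM. Tumor-draining libraries had 89.9, 76.4, 97.5 and 95.6 CPM, and agonist libraries 94.7, 89.4, 109 and 106 CPM. The agonist libraries were the highest of their prefix in 4 of 4 prefixes, with overlap between groups. The difference from healthy libraries was small, a log2 fold change of 0.23 (SE 0.12, edgeR adjusted p = 0.362) group only and 0.23 (SE 0.07) with the block, where it was called higher (adjusted p = 0.0304). That call held without prefix 4 (0.0450) and was lost without prefix 1, 2 or 3 (0.0654, 0.192 and 0.337) and over protein-coding transcripts alone (0.13, adjusted p = 0.283).

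Tgfb1 (ENSMUSG00000002603.15, chromosome 7, 25687002 to 25705077, plus strand), the TGF-beta ligand most made by immune cells, passed no test on the count scale. Healthy replicates had 53.5, 56.6, 87.5 and 93.9 CPM, tumor-draining ones 71.2, 61.4, 77.4 and 96.6, and agonist ones 62.6, 60.4, 91.5 and 83.1. Prefixes 3 and 4 were higher than 1 and 2 in each group, and the groups overlapped. The log2 fold change between agonist and healthy libraries was 0.03 (SE 0.21, edgeR adjusted p = 0.967) group only and 0.05 (SE 0.09, adjusted p = 0.750) with the block.

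On the per-length scale the same gene was lower with the agonist, and the difference lay in a short transcript. Summed over all its transcripts, Tgfb1 was at 80.7, 77.8, 78.4 and 88.5 TPM in healthy libraries, 73.5, 73.7, 81.9 and 68.4 in tumor-draining and 52.6, 58.0, 56.4 and 46.9 in agonist libraries, so that all agonist libraries lay below all others. In a limma fit on log2(TPM + 1) this was a log2 difference of -0.60 against healthy libraries (adjusted p = 0.0158). The transcript Tgfb1-205, a noncoding processed transcript of 241 bases in 2 exons of which 76 bases lie in the coding sequence, held 27.6% to 69.6% of the gene's TPM but 0.368% to 2.74% of its estimated counts, which were 14 to 60 per library. It was at 1.18 ± 0.200 CPM in healthy, 1.03 ± 0.145 in tumor-draining and 0.609 ± 0.210 in agonist libraries, and the difference from healthy libraries missed the threshold in a transcript-level edgeR fit chosen after the values were seen (log2 fold change -0.95, SE 0.35, adjusted p = 0.371 group only; adjusted p = 0.133 with the block). The coding transcript Tgfb1-201 held 84.3% of the counts on average and was at 61.1 ± 24.0, 66.3 ± 16.5 and 64.8 ± 18.8 CPM. Without the noncoding transcripts the gene was at 20.0 ± 6.66, 21.1 ± 4.24 and 20.1 ± 5.81 TPM, with overlapping groups.

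**Figure D2:**
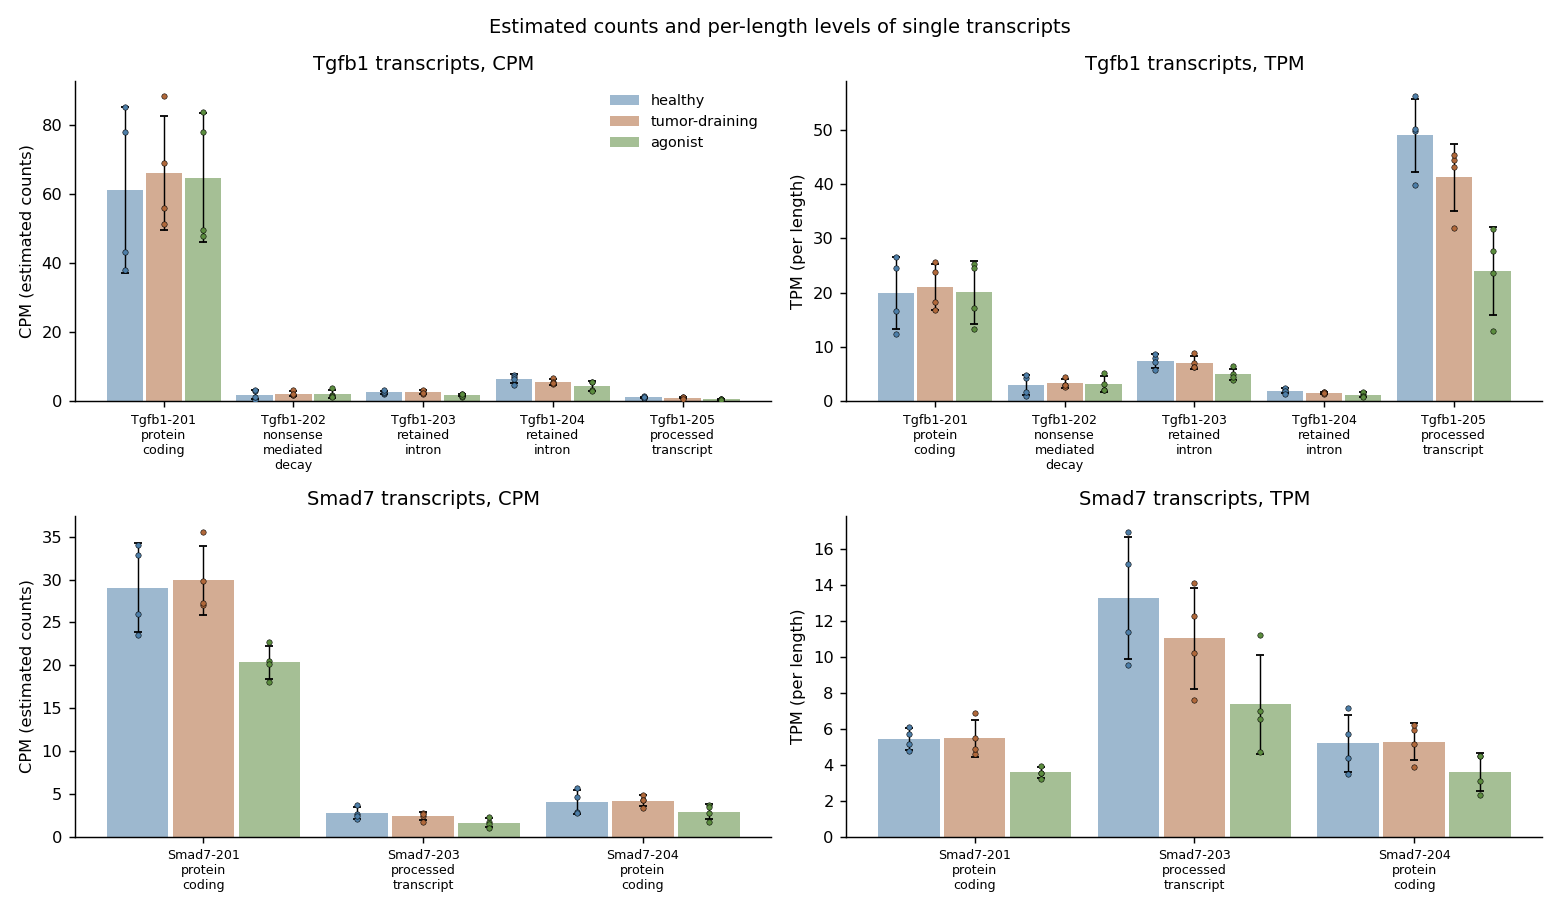
Transcripts of Tgfb1 and Smad7 (without Smad7-202 and Smad7-205, whose group means are under 1 TPM) as CPM of their estimated counts (left) and as TPM (right), with bars for the group mean, error bars for the SD and 1 point per library (n = 4 per group). Tgfb1-205, near 1 CPM, has the highest group means of the Tgfb1 transcripts in TPM, while the coding Smad7-201 is lower in agonist libraries on both scales.

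Tgfbr1 (ENSMUSG00000007613.15, chromosome 4, 47353222 to 47414931, plus strand) encodes the type I receptor kinase that phosphorylates Smad2 and Smad3. The starts of the transcripts with the most counts, Tgfbr1-201 and Tgfbr1-203, lie far apart, and both start regions are shown. Each window holds 250 bases before and 50 after a RefSeq start in GRCm38.p6, on the plus strand, 5′ to 3′. The first, chr4:47352972-47353271, covers the start of the long coding transcript Tgfbr1-201. The second, chr4:47385966-47386265, lies in the second intron of that transcript, between exons 2 and 3, and covers the start of Tgfbr1-203. Capitals mark CAGAC, a Smad-binding element.
Tgfbr1 upstream start: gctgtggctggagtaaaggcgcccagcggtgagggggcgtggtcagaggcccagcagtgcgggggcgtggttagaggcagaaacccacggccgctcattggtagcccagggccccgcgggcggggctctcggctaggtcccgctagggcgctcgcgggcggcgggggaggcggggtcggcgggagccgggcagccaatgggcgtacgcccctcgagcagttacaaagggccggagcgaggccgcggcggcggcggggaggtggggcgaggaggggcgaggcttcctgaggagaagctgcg
Tgfbr1 internal start: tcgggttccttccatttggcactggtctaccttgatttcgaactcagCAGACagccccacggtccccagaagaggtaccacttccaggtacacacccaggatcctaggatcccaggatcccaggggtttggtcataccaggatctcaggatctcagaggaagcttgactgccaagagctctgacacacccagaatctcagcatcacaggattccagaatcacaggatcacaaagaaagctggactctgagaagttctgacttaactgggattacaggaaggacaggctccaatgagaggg
The upstream window was 74.67% G or C with 34 CG dinucleotides, against medians of 52.7% and 7 over 32851 windows of 300 bases. The internal window was 52% G or C with 3 CG dinucleotides and held 1 CAGAC, which 49.6% of all windows hold on either strand. Neither window held GTCTAGAC (0.213% of windows), TTCNNNGAA, the STAT site (8.30%), the NF-kB site GGAATTTCC (0.317%) or the immunoglobulin kappa NF-kB site (0.155%), searched on both strands. RefSeq windows were found for 3 of the 8 members, Tgfb1, Tgfbr1 and Tgfbr2.

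Tgfbr1 was read at 110, 113, 97.4 and 109 CPM in healthy replicates 1 to 4, at 125, 111, 164 and 106 CPM in tumor-draining ones and at 163, 136, 171 and 194 CPM in agonist ones. Every agonist library lay above every healthy one, and tumor-draining replicate 3 reached into the agonist range. Against healthy libraries the level rose from 107 ± 6.92 to 166 ± 23.8 CPM (SD, n = 4 each), a log2 fold change of 0.63 (SE 0.15, edgeR adjusted p = 0.0234) group only and 0.62 (SE 0.14, adjusted p = 0.0117) with the block, higher in 4 of 4 prefixes. The group-only call was lost without any 1 of the 4 healthy libraries (adjusted p = 0.0708, 0.0501, 0.104 and 0.0604 without replicates 1 to 4) and without agonist replicate 3 (0.0671) or 4 (0.103). The log2 fold change stayed between 0.52 and 0.70 over all 12 such fits. The block call was lost without prefix 1 (0.0633), and the limma fit on log2(TPM + 1) gave 0.46 (adjusted p = 0.155). Against tumor-draining libraries it was 0.39 (SE 0.15, adjusted p = 0.257) group only and 0.40 (SE 0.14, adjusted p = 0.0964) with the block, higher in 4 of 4 prefixes. In this comparison the block fit without prefix 3 called it (0.47, adjusted p = 0.0462).

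Most of the Tgfbr1 counts lay on the transcript of the upstream start. Tgfbr1-201 was at 85.1 ± 3.28, 107 ± 26.9 and 136 ± 24.3 CPM in healthy, tumor-draining and agonist libraries, and Tgfbr1-203 at 14.8 ± 1.37, 13.9 ± 1.38 and 18.0 ± 1.62 CPM. Both were higher in every agonist library than in any healthy one. At the transcript level neither passed the threshold against healthy libraries, with log2 fold changes of 0.67 (SE 0.18, edgeR adjusted p = 0.168 group only, 0.0823 with the block) and 0.28 (SE 0.15, adjusted p = 0.702 group only, 0.240 with the block).

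Macrophages also carry CD11c, and 9 of 11 macrophage markers were called higher in agonist than in healthy libraries, with 1, Adgre1 (F4/80), called lower. These counts were the same group only and with the block, where 6.28% and 20.1% of all genes were called. The summed level of the 11 markers ran from 723 to 1036 CPM in healthy, 776 to 1318 in tumor-draining and 1569 to 2290 in agonist libraries, and no marker was at 0 in any library. The part of macrophages in the Tgfbr1 values was not tested.

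Tgfbr2 (ENSMUSG00000032440.13, chromosome 9, 116084293 to 116175360, minus strand), the ligand-binding receptor kinase, varied mainly with the prefix. Healthy replicates had 120, 148, 171 and 172 CPM, tumor-draining ones 121, 142, 194 and 187, and agonist ones 133, 149, 206 and 220. The groups overlapped, and the agonist library was the highest of its prefix in 4 of 4 prefixes. Against healthy libraries the log2 fold change was 0.21 (SE 0.20, edgeR adjusted p = 0.693) group only and 0.20 (SE 0.07, adjusted p = 0.0644) with the block.

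Smad7 (ENSMUSG00000025880.11), the inhibitory Smad, had 33.5, 30.2, 39.0 and 40.4 CPM in healthy replicates 1 to 4. Tumor-draining libraries had 33.1, 34.0, 42.2 and 38.5 CPM, and agonist libraries 26.0, 22.8, 30.9 and 26.6 CPM. All agonist libraries lay below all tumor-draining ones, and agonist replicate 3 lay just above healthy replicate 2. Against tumor-draining libraries the level went from 37.0 ± 4.21 to 26.5 ± 3.34 CPM, a log2 fold change of -0.48 (SE 0.14) that missed the threshold group only (edgeR adjusted p = 0.0864) and passed it with the block (SE 0.07, adjusted p = 0.00115). Against healthy libraries it was -0.43 (SE 0.14, adjusted p = 0.0834) group only and -0.43 (SE 0.07, adjusted p = 0.00135) with the block. Smad7 was lower in 4 of 4 prefixes in both comparisons, with differences of -0.35, -0.58, -0.45 and -0.53 on the log2 scale from the tumor-draining partners of prefixes 1 to 4. With the block it was called in both comparisons without any 1 prefix (adjusted p from 0.00494 to 0.0150 against tumor-draining libraries). Group only, it was also called against tumor-draining libraries by DESeq2 (adjusted p = 0.0391), with upper quartile scaling (0.0113) and over protein-coding transcripts alone (0.0203). No group-only edgeR fit without 1 library called it against tumor-draining libraries (adjusted p from 0.0858 to 0.249). The same held against healthy libraries (0.0677 to 0.234).

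The fall of Smad7 also appeared in its main coding transcript. Smad7-201 was at 29.1 ± 5.16, 29.9 ± 4.01 and 20.3 ± 1.91 CPM in healthy, tumor-draining and agonist libraries, and every agonist library lay below every other library. With the block it fell by 0.55 on the log2 scale against tumor-draining libraries (edgeR adjusted p = 0.0266) and by 0.50 against healthy ones (adjusted p = 0.0209), and the group-only adjusted p was 0.366 and 0.273. Of 68421 transcripts tested, 0.0585% group only and 1.52% with the block were called against tumor-draining libraries, and 0.732% and 3.57% against healthy ones. A noncoding transcript of 392 bases, Smad7-203, held 34.1% to 66.7% of the gene's TPM and 3.63% to 11.4% of its estimated counts.

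Dendritic cell markers were lower beside Smad7. Of 7, 6 were called lower with the block in each agonist comparison, and 0 and 2 group only, against tumor-draining and healthy libraries. Over all genes, 13.3% and 20.1% were called with the block and 2.68% and 6.28% group only. The summed level of the 7 markers averaged 32895 CPM in healthy, 31645 in tumor-draining and 20671 in agonist libraries, and no marker was at 0 in any library. Their part in the Smad7 values was not tested.

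Skil (ENSMUSG00000027660.16, chromosome 3, 31095058 to 31122577, plus strand), the Smad co-repressor, passed the test in no comparison. Healthy replicates had 155, 172, 139 and 156 CPM, tumor-draining ones 144, 134, 164 and 142, and agonist ones 146, 150, 152 and 151. The groups overlapped, and the agonist libraries had the smallest SD of the 3 groups (2.62 CPM, against 13.5 in healthy and 13.1 in tumor-draining libraries). Its log2 fold changes were -0.09 (SE 0.11), 0.04 (SE 0.11) and -0.05 (SE 0.11) for tumor-draining minus healthy, agonist minus tumor-draining and agonist minus healthy, with edgeR adjusted p = 0.843, 0.962 and 0.888.

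Counted over the 8 members, edgeR called 0 between tumor-draining and healthy libraries, group only and with the block, against 0.198% and 6.30% of all 23729 genes tested. No member had an unadjusted p under 0.05 in either model, and DESeq2 and limma voom also called 0. The log2 fold changes ran from -0.09 for Skil to 0.24 for Tgfbr1, with a median of 0.08 against -0.02 over all genes. No member's groups were free of overlap, against 4.26% of all genes, and 1 of 8, Il10ra, moved the same way in 4 of 4 prefixes, against 36.0%.

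Between agonist and tumor-draining libraries edgeR called 0 of 8 members group only, where 2 had an unadjusted p under 0.05, and 1 of 8, Smad7, with the block, against 2.68% and 13.3% of all genes. Of all genes called group only, 438 were higher and 197 lower, and with upper quartile scaling 571 and 402. DESeq2, which gave no adjusted p for Il10, called 1 and limma voom 0. The groups did not overlap for 2 members, Il10 and Smad7, against 8.26% of all genes, and 6 of 8 moved the same way in 4 of 4 prefixes, against 33.6%. The median log2 fold change was 0.09 against 0.02 over all genes.

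Between agonist and healthy libraries edgeR called 1 of 8, Tgfbr1, group only and 4 of 8 with the block (Tgfbr1, Il10 and Il10rb higher, Smad7 lower), against 6.28% and 20.1% of all genes. Of all genes called group only, 1009 were higher and 481 lower, and with upper quartile scaling 950 and 861. The groups did not overlap for Tgfbr1 alone among the 8, against 12.4% of all genes, and 5 of 8 moved the same way in 4 of 4 prefixes, against 38.5%. The comparisons share libraries, so they are not independent of each other.

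**Figure D3:**
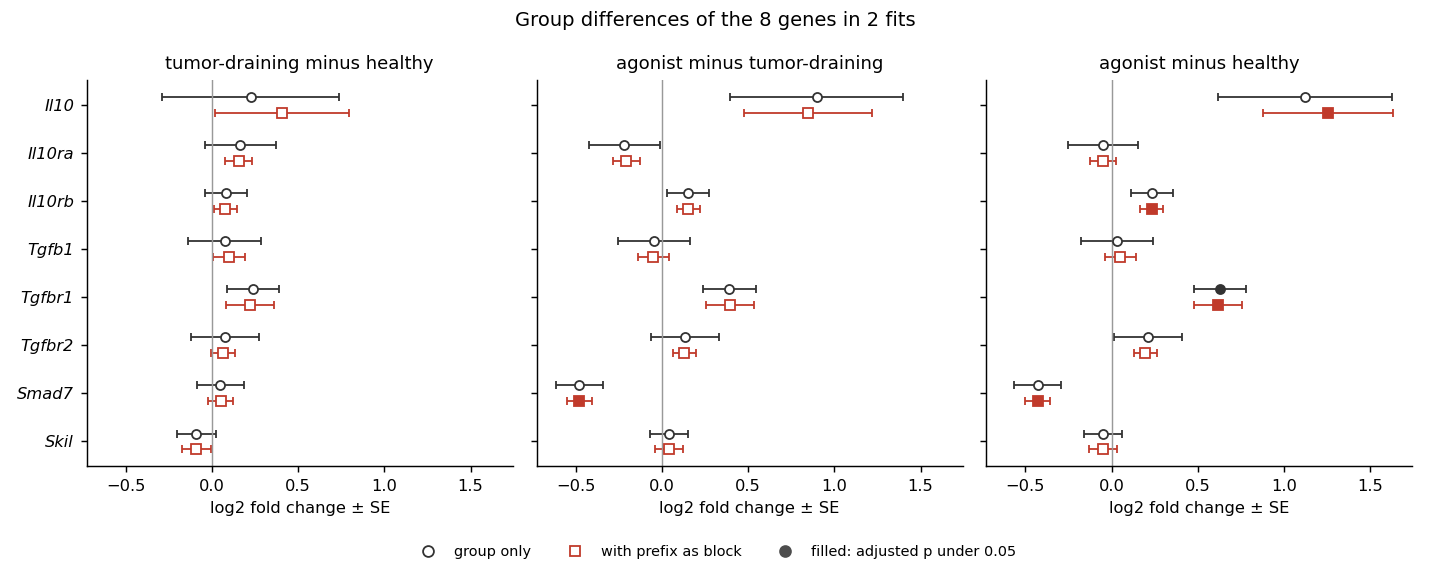
Log2 fold change ± SE of each gene in the 3 comparisons, from edgeR with group only (circles) and with the title prefix as a block (squares); filled symbols have an adjusted p under 0.05. Smad7 is filled with the block in both agonist comparisons, and Tgfbr1 in both models in the agonist minus healthy comparison.

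Group and prefix took different shares of each member's variance in log2 CPM. The group took 66.4% for Tgfbr1 and 65.7% for Smad7, and the prefix 6.23% and 29.9%. The prefix took 87.5% for Tgfbr2, 85.4% for Tgfb1 and 84.3% for Il10ra, and the group 8.32%, 1.90% and 9.36%. Over all genes the group took 26.5% and the prefix 44.1%. The nuclear RNA Malat1 moved with the prefix, averaging 20502, 18204, 6741 and 9091 CPM in prefixes 1 to 4, opposite to Il10ra at 269, 311, 411 and 415 CPM. By group, Malat1 averaged 15228 ± 8102 CPM in healthy, 9672 ± 5147 in tumor-draining and 16004 ± 7315 in agonist libraries (SD). Within every prefix the tumor-draining library was the lowest. The part of Malat1 in the prefix and group differences was not tested.

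Likeness between genes was described by Pearson's r of log2 CPM after removing each prefix mean, over 12 libraries that share depth and group structure. Among the members, Tgfbr1 and Tgfbr2 were most alike (r = 0.93), followed by Tgfbr1 and Il10rb (r = 0.87). Smad7 ran opposite to Tgfbr2 (r = -0.77), Il10rb and Tgfbr1 (both r = -0.74). Over 9360 genes the closest were Stab1 and Tspan4 to Tgfbr1 (r = 0.998 and 0.986), Mctp2 and Hps3 to Smad7 (0.975 and 0.972), Rabepk and Utp4 to Il10 (0.951 and 0.949) and Bnip2 and Nfx1 to Il10ra (0.968 and 0.964). For Il10rb they were Atp6v1d and Hspbap1 (0.981 and 0.972), for Tgfbr2 Sipa1l2 and Plekha3 (0.978 and 0.976) and for Tgfb1 Hist1h4k and Hist1h4d (0.956 and 0.930). Over the 16 pairs computed for the 8 members, Spearman's rho ran from 0.748 to 0.993, and r without the 2 libraries farthest from the median from 0.773 to 0.995. The pairs were picked for the highest r over these same 12 libraries, so high values are partly fixed by the search and are no separate check.

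Of 14 genes of IL-10 signaling and its myeloid targets, 2 rose between healthy and tumor-draining libraries, group only, and 5 with the block, and none fell. Over all genes, 0.198% group only and 6.30% with the block were called in this comparison. Il1rn, the IL-1 receptor antagonist, was at 17.1 ± 1.74 CPM in healthy and 62.1 ± 30.6 in tumor-draining libraries, a log2 fold change of 1.86 (SE 0.31, edgeR adjusted p = 0.0405, higher in 4 of 4 prefixes). Socs3, a feedback inhibitor of STAT3, was at 21.8 ± 3.96 and 72.4 ± 33.3 CPM, a log2 fold change of 1.74 (SE 0.31, adjusted p = 0.0448, higher in 4 of 4 prefixes). Of the 12 fits without 1 library, 5 called Il1rn and 2 called Socs3. The Il1rn call was lost without any 1 healthy library, tumor-draining replicate 1 or 3 or agonist replicate 2 (adjusted p up to 0.199). The Socs3 call was lost without any 1 healthy library, tumor-draining replicate 1, 2 or 3 or agonist replicate 1, 2 or 4 (adjusted p up to 0.239). With the block, Il1rn was called in 1 and Socs3 in 0 of the 4 fits without 1 prefix, and limma voom called 0 of the 14. Bcl3, Stat3 and Il4ra passed with the block alone, at log2 fold changes of 0.62, 0.31 and 0.48, and in 3, 0 and 0 of the 4 block fits without 1 prefix. Both Il1rn and Socs3 are known to be induced by other STAT3-activating cytokines as well. The list's median was 0.21 against -0.02 over all genes. Neutrophil markers were higher beside these genes: the summed level of 10 ran from 27.0 to 38.0 CPM in healthy and from 49.8 to 131 CPM in tumor-draining libraries, without overlap. Of the 8 that passed the filter on low counts, 1 was called higher group only and 4 with the block, against 0.198% and 6.30% of all genes. Of the 10, 2 were at 0 in at least 1 library. The part of neutrophils in the Il1rn and Socs3 values was not tested.

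With the agonist, 1 of the 14 rose against tumor-draining libraries, group only, and 4 with the block, against 2.68% and 13.3% of all genes called. Hmox1, the heme-degrading enzyme, was at 38.9 ± 6.68 and 120 ± 51.4 CPM, a log2 fold change of 1.62 (SE 0.23, edgeR adjusted p = 0.00244), and was called in 12 of 12 fits without 1 library. Hmox1 is also a marker of red pulp and node macrophages, whose marker levels are given above. Etv3, a repressor induced by IL-10, Il4ra and Tyk2 passed with the block alone, at 0.40, 0.45 and 0.27, and in 2, 1 and 1 of the 4 block fits without 1 prefix. Against healthy libraries 5 of 14 rose, group only, with Hmox1 at 1.79, Il1rn at 2.46 and Il4ra at 0.94, each called in 12 of 12 fits without 1 library. With the block 8 rose and 1, the mRNA-decay factor Zfp36, fell by 0.29. Over all genes, 6.28% group only and 20.1% with the block were called in that comparison.

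Factors that control the Il10 gene rose and fell with the block. Of 8, edgeR group only called 0 between healthy and tumor-draining libraries, where 1 had an unadjusted p under 0.05, DESeq2 called 1 and limma voom 0. With the agonist against tumor-draining libraries it also called 0, where 4 had an unadjusted p under 0.05 and DESeq2 and limma voom called 0. Over all genes, edgeR group only called 0.198% and 2.68% in these comparisons. Bhlhe40, a known repressor of Il10, rose with the block between healthy and tumor-draining libraries (0.85, SE 0.14, adjusted p = 0.00861, 0.0608 group only), a call held in 3 of the 4 fits without 1 prefix. Between healthy and agonist libraries it rose in both models, from 74.2 ± 5.44 to 177 ± 20.3 CPM (1.26, SE 0.18, edgeR adjusted p = 0.000913 group only), and was called in 12 of 12 fits without 1 library. With the block against tumor-draining libraries, the cyclic AMP-responsive factor Crem rose (0.60), and Ahr, the aryl hydrocarbon receptor, (-0.52) and Irf4 (-0.43) fell. Of the 3, Ahr was called in 4 of the 4 block fits without 1 prefix, Irf4 in 2 and Crem in 1. Over all genes, 13.3% were called with the block in that comparison. Against healthy libraries 1 of the 8, Bhlhe40, was called group only and 6 with the block, against 6.28% and 20.1% of all genes. The 6 were Bhlhe40, Prdm1 (0.52), Crem (0.51) and Batf (0.35), higher, and Irf4 (-0.38) and Ahr (-0.29), lower. In that comparison Bhlhe40 and Ahr were called in 4 of the 4 block fits without 1 prefix, Irf4 in 3, Crem and Batf in 1 each and Prdm1 in 0. Of 9 relatives of IL-10 and their receptors, 5 (Il19, Il20, Il22, Il24 and Il20ra) did not pass the filter on low counts. Il22ra1, a chain of the IL-22 receptor, had group means of 0.0170 CPM in healthy and 0.471 CPM in tumor-draining libraries, a block log2 fold change of 4.19 that missed the threshold (edgeR adjusted p = 0.206, higher in 2 of 4 prefixes). Il22ra2, the soluble decoy receptor of IL-22, rose with the block against tumor-draining libraries, from 25.4 ± 12.5 to 73.5 ± 36.7 CPM (1.51, SE 0.36, adjusted p = 0.0370, group only 0.0953), a call held in 1 of the 4 block fits without 1 prefix.

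Of 13 other TGF-beta ligands and activators, 0 were called by edgeR group only in any comparison, against 0.198%, 2.68% and 6.28% of all genes. At an unadjusted p under 0.05 there were 3, 2 and 4 in tumor-draining minus healthy, agonist minus tumor-draining and agonist minus healthy, DESeq2 called 0, 0 and 3 and limma voom 0, 0 and 1. The block fit called 1, 1 and 2 of the 13, against 6.30%, 13.3% and 20.1% of all genes. With the block Tgfb3, a sister ligand, fell between healthy and tumor-draining libraries, from 5.33 ± 1.06 to 3.38 ± 0.561 CPM (-0.64, SE 0.17, edgeR adjusted p = 0.0442), a call held in 1 of the 4 fits without 1 prefix. Tgfb2 rose with the agonist against tumor-draining libraries from 0.975 ± 0.250 to 2.04 ± 0.352 CPM (1.09, SE 0.30, adjusted p = 0.0308 with the block), also held in 1 of 4. Against healthy libraries Tgfb2 rose with the block as well (edgeR adjusted p = 0.00519, 0.0514 group only), held in 4 of 4. The integrin chain Itgav also rose there with the block (edgeR adjusted p = 0.0386), held in 1 of 4. Of 8 co-receptors and Smads, edgeR called 0, 0 and 1 group only and 1, 1 and 3 with the block, in the same order of comparisons. The shares of all genes are those given above. Smad4, the common partner, rose with the block in tumor-draining libraries (0.26), a call held in 0 of 4. Zfyve9 (SARA), which presents Smad2 to the receptor, rose with the agonist against tumor-draining libraries with the block (0.53), held in 4 of 4. Against healthy libraries Zfyve9 rose in both models (0.77, SE 0.15, edgeR adjusted p = 0.00507 group only) and was called in 12 of 12 fits without 1 library. In that comparison Smad4 rose (edgeR adjusted p = 0.0158) and Acvrl1 fell (0.0160) with the block alone, held in 2 and 3 of 4.

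The other inhibitory Smad and Smad7 had opposite signs. Of 14 other inhibitors and modifiers, Smad6 rose with the agonist from 0.409 ± 0.112 to 1.11 ± 0.286 CPM against tumor-draining libraries (1.45, SE 0.34, edgeR adjusted p = 0.0145 with the block, 0.0636 group only), a call held in 1 of the 4 block fits without 1 prefix. Against healthy libraries Smad6 rose in both models (1.37, edgeR adjusted p = 0.0471 group only, 0.0115 with the block), but was called in 1 of 12 fits without 1 library, that without healthy replicate 2, and with the block in 2 of the 4 fits without 1 prefix (adjusted p up to 0.0826). Pmepa1, which sequesters receptor Smads, rose from 9.78 ± 3.88 to 16.4 ± 3.92 CPM (0.77, SE 0.18, adjusted p = 0.0194 with the block, 0.180 group only), also held in 1 of 4. Against tumor-draining and healthy libraries, 2 and 2 of the 14 were called with the block and 0 and 1 group only. Over all genes, 13.3% and 20.1% were called with the block in these comparisons and 2.68% and 6.28% group only. Of these 14, 0 were called lower in any comparison in either model, and between healthy and tumor-draining libraries 0 were called in either direction by edgeR, DESeq2 or limma voom, and 0 had an unadjusted p under 0.05. Over all genes, edgeR called 0.198% group only and 6.30% with the block between healthy and tumor-draining libraries.

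Of 14 genes controlled by TGF-beta, 1 rose with the agonist against tumor-draining libraries, group only, and 4 with the block, and none fell. Over all genes, 2.68% group only and 13.3% with the block were called in this comparison. Cdkn1a (p21), a cell cycle inhibitor, was at 37.3 ± 5.79 and 59.6 ± 9.11 CPM (0.67, SE 0.15, edgeR adjusted p = 0.0232). Its group-only call was lost without tumor-draining replicate 2 or 3 or agonist replicate 3 or 4 (adjusted p up to 0.0917), and its block call held in 4 of the 4 fits without 1 prefix. Id2, an inhibitor of helix-loop-helix factors that some dendritic cells need, was at 306 ± 40.6 and 440 ± 25.7 CPM (0.53, SE 0.08, adjusted p = 0.00111 with the block, 0.0551 group only), held in 4 of 4. Id1, a relative of Id2, and Spsb1 rose with the block by 1.35 and 0.86, held in 4 and 0 of 4. Against healthy libraries 4 rose group only (6.28% of all genes were called), with Id1 at 2.14, Id2 at 0.66, Runx3 at 0.61 and Cdkn1a at 0.54. Of these, Id1 and Id2 were called in 12 of 12 fits without 1 library, and Runx3 and Cdkn1a in 3 each. Between healthy and tumor-draining libraries 0 were called by edgeR group only, DESeq2 or limma voom and 4 had an unadjusted p under 0.05. Tgfbi, Runx3 and Klf10 rose with the block, by 0.68, 0.41 and 0.24, held in 1, 1 and 0 of 4. Over all genes, edgeR called 0.198% group only and 6.30% with the block between healthy and tumor-draining libraries. Id1 and Id2 are known to be controlled by bone morphogenetic proteins too. Natural killer cells, which are known to carry Id2 and Runx3, had markers whose summed level over 9 genes ran from 28.6 to 59.3 CPM in healthy, 24.2 to 44.9 in tumor-draining and 44.8 to 118 in agonist libraries, with none at 0 in any library. Of the 9, 2 were called higher group only and 5 with the block in agonist minus tumor-draining, against 2.68% and 13.3% of all genes. The part of these cells in the values of the TGF-beta targets was not tested.

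**Figure D4:**
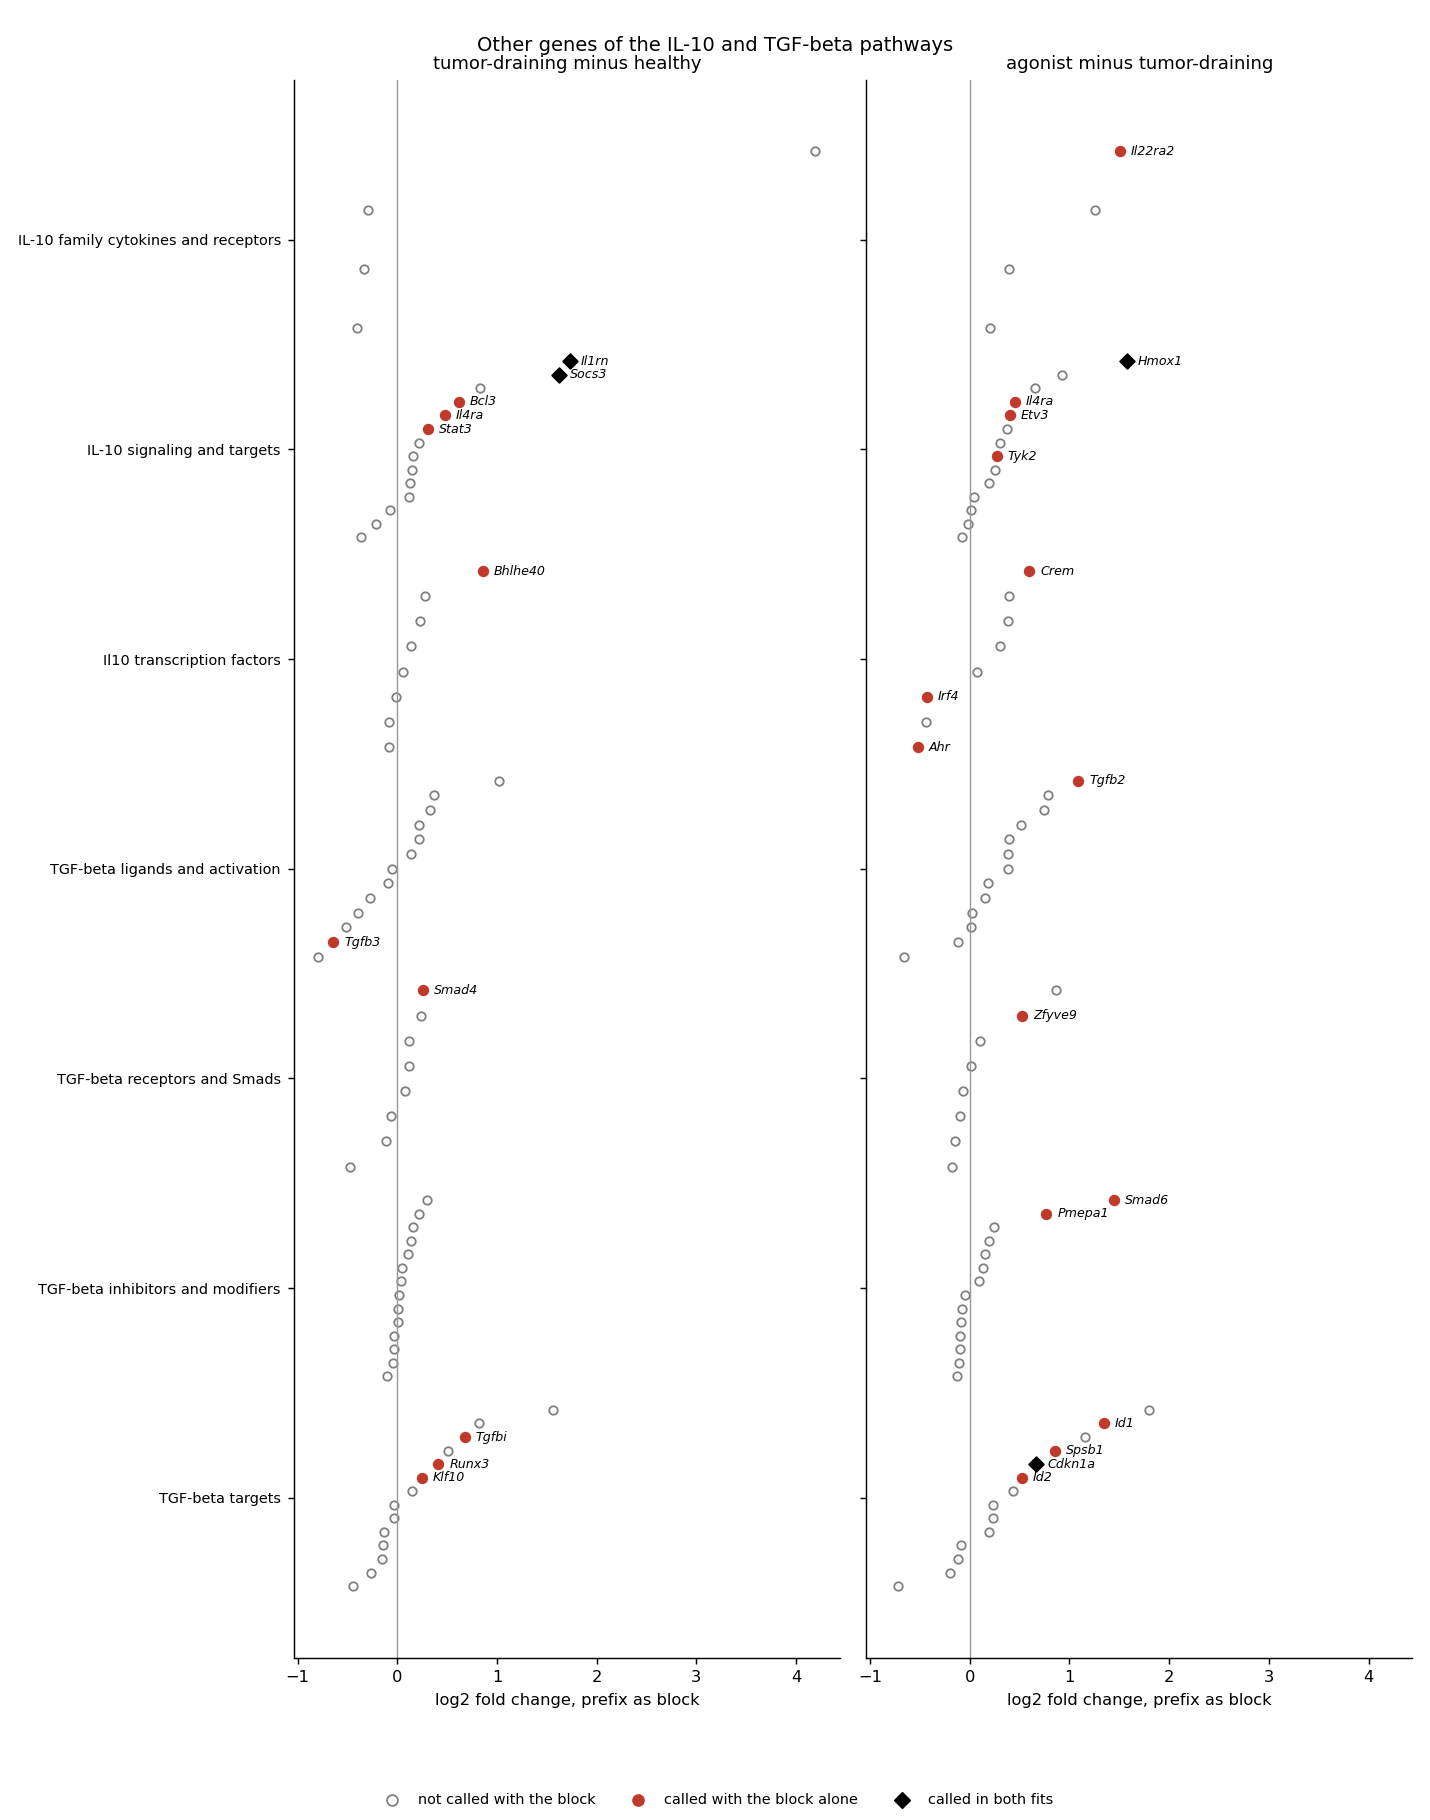
Log2 fold change, with the title prefix as a block, of the other genes of both pathways by list (vertical axis) in 2 comparisons; open circles were not called with the block, red circles were called with the block alone and black diamonds in both models. Il1rn and Socs3 are the diamonds in tumor-draining minus healthy, and Hmox1 and Cdkn1a are the diamonds in agonist minus tumor-draining.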

How the data were processed

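The protocols, per the labels, used the Qiagen RNeasy Plus Micro kit for RNA and the NEBNext Ultra II Directional kit for libraries. The authors quantified transcripts with Salmon on mm10, per the submitters' processing notes, and deposited estimated counts, not normalized, and TPM; version, annotation and filters: not given in the sources used here. Of 132374 transcripts, 131974 matched GENCODE M21 and were summed to genes and rounded; the rest held 0.116% to 0.147% of counts. Genes were tested in R 4.3.3 with edgeR 4.0.16 (quasi-likelihood, robust, TMM, minimum count 10, all 12 libraries, two-sided, Benjamini-Hochberg over 23729 genes, called under 0.05). The replicate block is the title prefix: same-prefix libraries deviated together (r from 0.204 to 0.473 in 12 pairs). Alternatives used DESeq2 1.42.0, limma 3.58.1, other scalings, no filter and left-out libraries. The fits were also run on data simulated with an assumed prefix effect, and the outcome is not given here. Members and lists were chosen with earlier results of these data known. Named pathway genes were up to 3 of smallest p per list, comparison and model, with exceptions. In agonist minus healthy, all Il10 factors called with the block and all TGF-beta targets called group only were named. Il22ra1 was named though edgeR did not call it. Likeness was searched over genes of mean log2 CPM 3 or more, without predicted genes, pseudogenes and antigen receptor segments. The genes closest to Skil are not reported here.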

Additional observations from a re-analysis of the deposited data

How the results depend on the processing

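The replicate block raised the genes called from 47 to 1495 (tumor-draining minus healthy), from 635 to 3161 (agonist minus tumor-draining) and from 1490 to 4781 (agonist minus healthy), and the members called from 0 to 1 and from 1 to 4 in the agonist comparisons. In tumor-draining minus healthy, upper quartile scaling called 30 genes, no filter 75, DESeq2 393, limma voom 1, log2(TPM + 1) 10 and protein-coding transcripts alone 18, or 442 with the block. In agonist minus tumor-draining, upper quartile scaling called 973, DESeq2 1182, log2(TPM + 1) 289 and protein-coding transcripts alone 985, or 2696 with the block. Upper quartile scaling, DESeq2 and protein-coding transcripts alone, with and without the block, each called 1 member there, Smad7. In agonist minus healthy, log2(TPM + 1) called 821 genes and protein-coding transcripts with the block 3426, and upper quartile scaling, log2(TPM + 1) and protein-coding transcripts, with and without the block, each called 2 members. These were not the same 2 in every setting. The limma fit on log2(TPM + 1) called Tgfb1 lower (-0.60, adjusted p = 0.0158) and did not call Tgfbr1 (0.46, adjusted p = 0.155).

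Leaving out 1 library, or 1 prefix with the block, gave 0 to 1502, 323 to 2333 and 829 to 4450 genes and, in the agonist comparisons, 0 to 2 and 0 to 3 members. In tumor-draining minus healthy the sign turned in such fits for Tgfb1 (-0.0681 to 0.22), Tgfbr2 (-0.0374 to 0.18), Il10 (-0.0473 to 0.90) and Smad7 (-0.0254 to 0.11). In agonist minus tumor-draining it turned for Skil (-0.0202 to 0.10), Tgfb1 (-0.19 to 0.0725) and Tgfbr2 (-0.00079 to 0.26), and in agonist minus healthy for Tgfb1 (-0.11 to 0.18), Skil (-0.17 to 0.00038) and Il10ra (-0.17 to 0.0581). With upper quartile scaling the median gene was at -0.11 and -0.12 in tumor-draining and agonist minus healthy, against -0.02 and -0.03 with TMM. That scaling gave -0.0229 for Il10rb, -0.0162 for Tgfb1, -0.0294 for Tgfbr2 and -0.0512 for Smad7 in tumor-draining minus healthy and -0.0571 for Tgfb1 in agonist minus healthy. With log2(TPM + 1), tumor-draining minus healthy was -0.13 for Tgfb1, -0.12 for Smad7 and -0.0113 for Runx3, and agonist minus healthy -0.60 for Tgfb1. Protein-coding transcripts alone, chosen after seeing the data, gave -0.0153 for Tgfbr2 and -0.0150 for Smad7 in tumor-draining minus healthy, and with the block -0.0196 and -0.00994. The cause of these turns was not tested. In the agonist comparisons where Smad7, Tgfbr1, Il10 or Il10rb was called, with or without the block, its sign held in all 25 alternatives. Il10 is limited by its 4 to 45 counts a library.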
